A study of Mus musculus with 9 samples.

Results

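The genes described here are 4 immediate early response genes, Egr1, Ier3, Dusp1 and Klf2. They were taken as every array feature whose platform annotation names 1 of these symbols alone, after symbols were updated by gene ID. The rule gave 6 of the 11552 features: 2 for Egr1, which share the cDNA accession AK037837, 2 for Dusp1 (both NM_013642), 1 for Ier3 (AK051003) and 1 for Klf2 (AI606037). Features of 1 gene share a target and are not separate evidence. The study compared castrated C57BL/6 mice with sham-castrated ones on dual-channel expression arrays, each holding cDNA of 1 castrated and 1 matched sham-operated mouse labelled with Cy3 or Cy5. Castration removes the testes, the main source of androgen, and the sham operation leaves them in place. The 3 groups, of 3 arrays each, were young bone and young bone marrow (17 weeks of age) and old bone marrow (59 weeks), with castration at 7 weeks in all of them. Each array of a group was a separate mouse pair, per the design text; the sources used here do not say if the bone and the marrow of the young mice were taken from 1 set of pairs. Marrow is described as separated from bone for the young mice only, and all RNA as isolated from pulverized bone, so bone in the old specimens cannot be told apart from marrow. Age and specimen type therefore change together between the old and the young bone arrays. They may also do so between the old and the young marrow arrays, as the old specimens may hold bone. Because castration was at 7 weeks throughout, time since castration changes with age in every comparison of old with young. Those effects cannot be told apart here, and a difference between ages below carries both.

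Immediate early genes are transcribed within minutes of a growth factor, cytokine, mechanical or stress signal, from factors the cell already holds, and most of their transcripts are short-lived. Kinase cascades such as ERK and p38 switch them on through the serum response factor and its partners and through CREB. Egr1 is a zinc finger transcription factor of this early wave, studied in blood stem cells, in the monocyte lineage and in bone under load. Ier3 is a short-lived protein that modulates cell death and ERK signalling. Dusp1 is a nuclear phosphatase that switches off p38, JNK and ERK and is also induced by glucocorticoids. Klf2 is a zinc finger transcription factor that keeps lymphocytes quiescent, drives the trafficking receptor S1pr1 and is induced by blood flow in endothelium.

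All values are deposited log ratios, read here as log2, so that 1 unit is a doubling. The direction of the ratio was not stated. The labels describe all 9 arrays as castrated against sham, which makes castrated over sham the likely direction, and this is the reading used unless another is named. On 3 arrays, called swapped here, the castrated mouse was labelled with Cy3: replicate 2 of both marrow groups and replicate 3 of young bone. If the deposited value were Cy5 over Cy3 (the channel reading), the swapped arrays would have to be multiplied by -1. On the 6 unswapped arrays both readings are the same. A ratio holds no level, so the labelled tissues could not be checked on marker levels, and less RNA per cell cannot be told apart from fewer cells. Between 8290 and 10995 features had a value on an array. Old replicate 1 stood apart by a wider spread of its values (SD 0.454 over features, against 0.192 to 0.294 for the other 8). Tests were made on 8885 features with values on at least 2 arrays of each group and 1 swapped array, with limma, and an adjusted p under 0.05 (Benjamini-Hochberg over all of them) is a call. Of the 6 features 5 were tested; the second Egr1 feature had 1 young marrow value and was not.

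Upstream sequence was matched for 3 of the 4 genes in RefSeq's table (build GRCm38.p6). It is shown to describe which motifs of signal-driven factors each stretch holds, and the stretches differ in them. Each run is the 250 bases before the annotated start, 5′ to 3′ on the gene's strand. Capitals mark matches on either strand to TGACGTCA (the full CREB motif), TGACG (its shorter form) or GGGCGG (the GC box read by Sp factors). They also mark matches to TATAA, the CArG box of the serum response factor and the NF-kappaB site. The stretch of Ier3 is chr17:35821463-35821712 on the plus strand, that of Dusp1 chr17:26508473-26508722 on the minus strand and that of Klf2 chr8:72318812-72319061 on the plus strand.
Ier3: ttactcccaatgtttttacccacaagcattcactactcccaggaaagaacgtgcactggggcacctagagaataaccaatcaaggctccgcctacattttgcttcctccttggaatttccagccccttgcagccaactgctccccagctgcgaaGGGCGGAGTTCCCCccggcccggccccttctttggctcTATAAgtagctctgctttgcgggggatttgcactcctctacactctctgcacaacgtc
Dusp1: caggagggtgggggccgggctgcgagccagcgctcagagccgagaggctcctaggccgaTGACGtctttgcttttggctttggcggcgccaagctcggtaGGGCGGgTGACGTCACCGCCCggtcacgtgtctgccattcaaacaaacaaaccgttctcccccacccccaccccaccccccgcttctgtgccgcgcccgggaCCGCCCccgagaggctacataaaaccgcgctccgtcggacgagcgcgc
Klf2: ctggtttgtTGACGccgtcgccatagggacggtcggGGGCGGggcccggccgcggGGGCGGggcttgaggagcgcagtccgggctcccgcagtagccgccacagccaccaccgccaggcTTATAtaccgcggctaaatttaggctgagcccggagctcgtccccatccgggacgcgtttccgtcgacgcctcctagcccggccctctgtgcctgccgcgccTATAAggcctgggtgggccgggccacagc
The Dusp1 stretch held 1 TGACGTCA, 3 TGACG (2 of them the arms of that TGACGTCA) and 3 GGGCGG. Ier3 held 1 GGGCGG that overlaps 1 NF-kappaB site, and 1 TATAA. Klf2 held 1 TGACG, 2 GGGCGG and 2 TATAA, and none of the 3 stretches held a CArG box. These letters are not rare in the 32851 promoter stretches of the same length: 32.7% held GGGCGG, 22.8% TATAA, 17.8% TGACG, 7.3% the NF-kappaB site, 1.5% TGACGTCA and 1.5% a CArG box. A match is a description of the letters and not a sign of binding.

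Egr1 had the widest gap between ages among the members. Its deposited ratio was above 0 on every young array and below 0 on every old array, in both of its features. In young bone the first feature read 0.17, 0.49 and 0.51 on replicates 1 to 3. In young marrow it read 0.51, 0.60 and 0.43. In the old specimens it read -0.53, -1.73 and -0.22. The young arrays lie close together and do not overlap the old ones, and old replicate 2, a swapped array, stands far below the other two. The second feature read 0.29, 0.44 and 0.53 in young bone, 0.60 on young marrow replicate 2, and -0.36, -1.74 and -0.28 in the old specimens. The features differed by at most 0.17 on any array (median 0.05, n = 7), so the low value of old replicate 2 was read by both.

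The mean of the first feature was 0.51 (SD 0.09, n = 3) in young marrow, 0.39 (SD 0.19, n = 3) in young bone and -0.83 (SD 0.80, n = 3) in the old group. The neighbours in that order, young marrow and young bone, differed by 0.12 (bone minus marrow -0.12, SE 0.29, adjusted p = 0.97). That is less than the SD of young bone and more than that of young marrow. The fitted castration value was 0.33 in young bone (SE 0.21, adjusted p = 0.78), 0.46 in young marrow (SE 0.21, adjusted p = 0.47) and -0.88 in the old group (SE 0.21, adjusted p = 0.10), and no group passed. Averaged over the 3 groups the opposite signs cancelled to -0.03 (SE 0.12, adjusted p = 0.95).

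The old minus young difference of Egr1, with young as the mean of bone and marrow, was -1.28 (SE 0.25, 95% interval -1.83 to -0.73), a 2.43-fold lower ratio. It was the lowest of all 8885 features and ranked 9 by p, but its adjusted p was 0.35 and it was not called. In that comparison 4 features passed (0.045%), while 1100 had an unadjusted p under 0.05. Against young marrow alone the difference was -1.34 (SE 0.29, adjusted p = 0.34), again the lowest of all, in a comparison where limma called 0 features (0%) and 1292 had an unadjusted p under 0.05. Of the 7544 features with 9 values, 16 (0.212%) were above 0 on all young and below 0 on all old arrays, the first Egr1 feature among them.

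Old replicate 2 set the size of that difference. Without it the Egr1 difference was -0.78 (SE 0.15, adjusted p = 0.52). Without old replicate 3, the least negative of the old arrays, it was -1.55 (SE 0.24, adjusted p = 0.0082) and passed, and with array weights it was -1.69 (SE 0.23, adjusted p = 0.016). The same settings moved the old value to -0.30 (adjusted p = 0.63), -1.13 (adjusted p = 0.0087) and -1.28 (adjusted p = 0.0070). The array weights gave old replicate 2 more weight (1.817) than old replicates 1 and 3 (0.421 and 0.404). Counts of called features over the whole series also changed widely under such settings, as the last section gives. By dye layout, the unswapped old arrays averaged -0.38 against 0.40 on the 4 unswapped young arrays, a difference of -0.78 that is the same under both readings. The swapped old array stood at -1.73 against a mean of 0.56 on the 2 swapped young arrays. Under the channel reading the swapped values change sign, old replicate 2 then lies above 0 while its group mates stay at -0.53 and -0.22, and the old minus young difference is 0.25 (SE 0.47, adjusted p = 1). So the sign of the fitted Egr1 difference depends on the direction of the ratio, while its sign on the unswapped arrays does not.

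**Figure D1:**
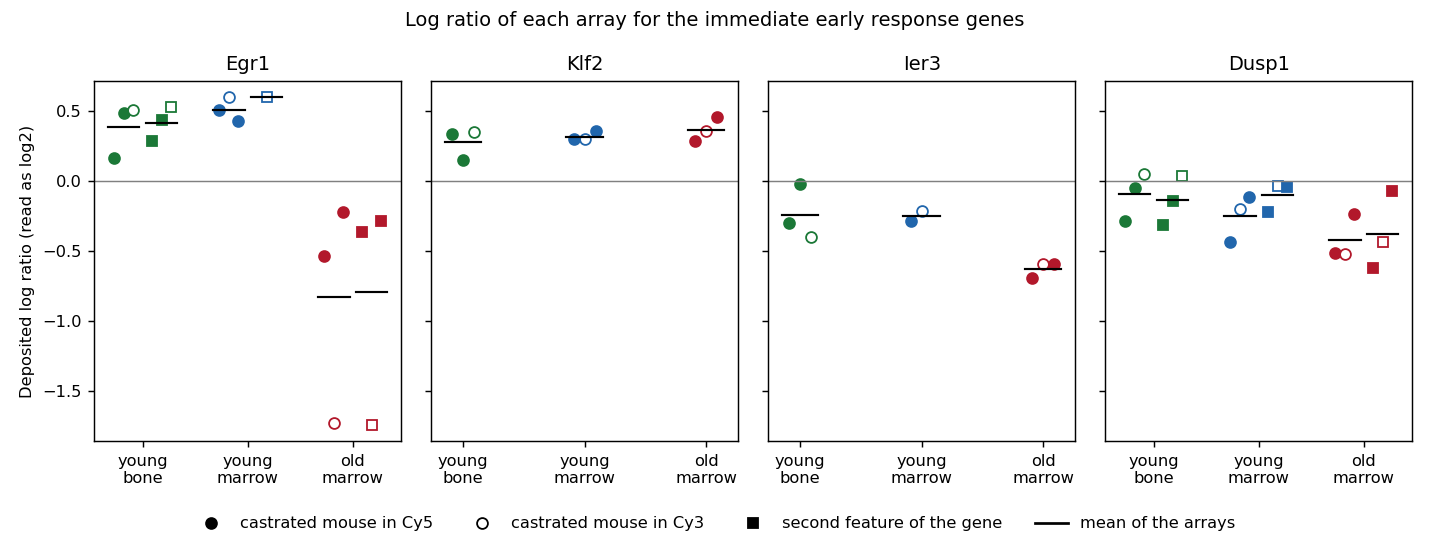
Deposited log ratio (read as log2) of each member feature on each array, by group; filled symbols are arrays with the castrated mouse in Cy5, open symbols the swapped arrays, squares the second feature of a gene, and horizontal lines the group means. Egr1 lies above 0 on every young array and below 0 on every old one, with old replicate 2 at -1.73 and -1.74, while Klf2 lies between 0.15 and 0.46 throughout.

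Klf2 was the steadiest member. Its deposited ratio was above 0 on 9 of 9 arrays, at 0.34, 0.15 and 0.35 in young bone, 0.30, 0.30 and 0.36 in young marrow, and 0.29, 0.36 and 0.46 in the old group. The 3 groups overlap, and the means of 0.28 (SD 0.11), 0.32 (SD 0.03) and 0.37 (SD 0.09; n = 3 each) differ by less than the spread of young bone. Averaged over the groups the ratio passed the test at 0.33 (SE 0.05, 95% interval 0.21 to 0.44, adjusted p = 0.0073), which is 1.25-fold higher in castrated mice under the castrated-over-sham reading. In that comparison 179 features (2.01%) passed above 0 and 180 (2.03%) below 0. A sign above 0 on all 9 arrays was held by 138 of the 7544 features with 9 values (1.83%).

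No single group passed for Klf2: young bone gave 0.28 (SE 0.09, adjusted p = 0.30), young marrow 0.32 (SE 0.09, adjusted p = 0.16) and the old group 0.37 (SE 0.09, adjusted p = 0.11). The features called in these groups were 23 (0.259%), 75 (0.844%) and 65 (0.732%), in either direction. Old minus young was 0.07 (SE 0.11, 95% interval -0.17 to 0.31, adjusted p = 0.77), and young bone minus young marrow was -0.04 (SE 0.12, adjusted p = 0.98). In that last comparison limma called 0 features (0%), and 455 had an unadjusted p under 0.05. On the unswapped arrays Klf2 averaged 0.32 (SD 0.10, n = 6) and on the swapped ones 0.34 (SD 0.03, n = 3). With the swapped values turned to negative ones by the channel reading, the average becomes -0.01 (SE 0.06, adjusted p = 0.97). The average over the unswapped arrays alone was 0.32 (SE 0.07) but its adjusted p was 0.086. Leaving out old replicate 2, young bone replicate 3 or young marrow replicate 2, the 3 swapped arrays, also ended the call (0.31 to 0.34, adjusted p = 0.059 to 0.070).

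Ier3 lay on the other side of 0. Its deposited ratio was below 0 on all 8 arrays with a value, at -0.30, -0.02 and -0.40 in young bone, -0.28 and -0.21 on young marrow replicates 1 and 2, and -0.69, -0.59 and -0.59 in the old group. Every old array was below every young array. The means were -0.24 (SD 0.20, n = 3) in young bone, -0.25 (SD 0.05, n = 2) in young marrow and -0.62 (SD 0.06, n = 3) in the old group. The young groups did not differ beyond their spread (bone minus marrow 0.00, SE 0.16, adjusted p = 0.99).

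The average over the groups passed for Ier3 at -0.38 (SE 0.06, 95% interval -0.52 to -0.23, adjusted p = 0.011), and so did the old group at -0.63 (SE 0.10, 95% interval -0.86 to -0.40, adjusted p = 0.026), a 1.55-fold lower ratio. Only 11 features (0.124%) passed below 0 in the old group. The fit on 8 arrays left 4 residual degrees of freedom before moderation against 5 for the other members. Young bone and young marrow each gave -0.25 (SE 0.10 and 0.12, adjusted p = 0.49 and 0.52). The old minus young difference was -0.39 (SE 0.13, 95% interval -0.67 to -0.10) and did not pass (adjusted p = 0.40), so the lower old value is not shown to differ from the young one. All old arrays lay below all young arrays in 130 of the 7544 features with 9 values (1.72%). Ier3 has 8 values and is not among those 7544, and its order rests on 5 young arrays, a less strict condition. A sign below 0 on every array was held by 206 of 8561 features with 8 or 9 values (2.41%).

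Both Ier3 calls rested on the swapped arrays as well as the unswapped ones. Under the channel reading the average was 0.01 (SE 0.08, adjusted p = 0.99) and the old value -0.10 (SE 0.13, adjusted p = 0.97). On the unswapped arrays, where the readings are the same, the average was -0.36 (SE 0.09, adjusted p = 0.12) and the old value -0.64 (SE 0.13, adjusted p = 0.25). The average call ended without old replicate 2, young bone replicate 3, or young marrow replicate 1 or 2 (-0.41 to -0.33, adjusted p = 0.059 to 0.093). The old call ended without old replicate 1 or 2, young bone replicate 1, or young marrow replicate 1 or 2 (-0.69 to -0.59, adjusted p = 0.064 to 0.31), and with arrays scaled to equal spread (-0.61, adjusted p = 0.091).

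Dusp1, the phosphatase that ends p38 and JNK signalling, was mostly below 0 but nearer to it than Ier3. Its first feature read -0.28, -0.05 and 0.05 in young bone, -0.43, -0.20 and -0.11 in young marrow, and -0.51, -0.52 and -0.23 in the old group. The second read -0.31, -0.14 and 0.04, then -0.22, -0.03 and -0.04, then -0.62, -0.43 and -0.07. Each feature was below 0 on 8 of 9 arrays, with young bone replicate 3 the exception in both, and the groups overlap. The features differed by 0.01 to 0.21 (median 0.09, n = 9).

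The averages over the groups were -0.25 (SE 0.07, adjusted p = 0.068) and -0.19 (SE 0.07, adjusted p = 0.21), and neither passed. The old group gave -0.41 (SE 0.11, adjusted p = 0.14) and -0.36 (SE 0.12, adjusted p = 0.21). Young marrow gave -0.24 (SE 0.11, adjusted p = 0.47) and -0.08 (SE 0.12, adjusted p = 0.80), and young bone -0.09 (SE 0.11, adjusted p = 0.98) and -0.12 (SE 0.12, adjusted p = 0.94). Old minus young was -0.25 (SE 0.13, adjusted p = 0.43) and -0.26 (SE 0.14, adjusted p = 0.44). With the replicate number as a block the averages were -0.26 (SE 0.05, adjusted p = 0.029), which passed, and -0.20 (SE 0.06, adjusted p = 0.087). Without old replicate 3 the old values were -0.52 (adjusted p = 0.018) and -0.53 (adjusted p = 0.013) and the averages -0.27 (adjusted p = 0.024) and -0.23 (adjusted p = 0.034), all of which passed. Leaving out 1 array also changed the counts of called features over the whole series widely, as the last section gives. The averages under the channel reading were -0.02 (adjusted p = 0.96) and -0.05 (adjusted p = 0.92). On the 6 unswapped arrays both features were below 0 on 6 of 6, with means of -0.27 (SD 0.18) and -0.23 (SD 0.21).

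**Figure D2:**
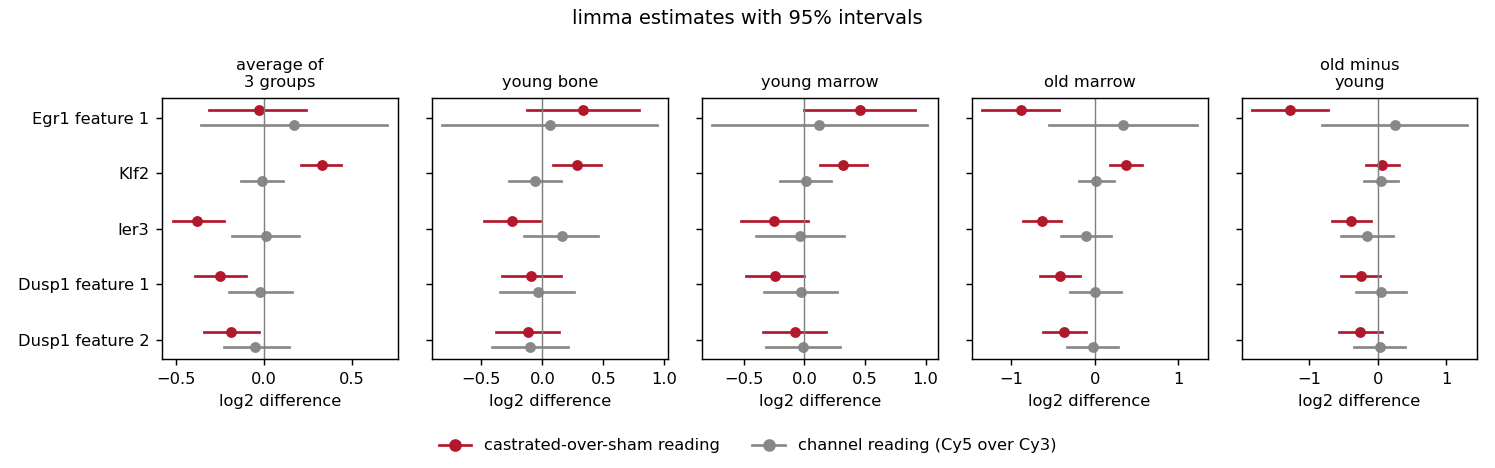
Castration values fitted with limma (points) and their 95% intervals (lines) for the 5 tested member features, in log2 units, as the average of the 3 groups, in each group, and as old minus young; red is the castrated-over-sham reading and grey the channel reading, and each panel has its own axis. The average of Klf2 (0.33) and that of Ier3 (-0.38) lie away from 0 under the first reading and at -0.01 and 0.01 under the second.

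The dye term of the fit takes up a shift between unswapped and swapped arrays. It has opposite signs for the layouts, so it is the step from their midpoint and not the full shift. It passed for no member: 0.17 (SE 0.12, adjusted p = 0.75) for Egr1, 0.03 (SE 0.06, adjusted p = 0.92) for Ier3, -0.02 and -0.05 (SE 0.07 each, adjusted p = 0.93 and 0.85) for Dusp1 and -0.01 (SE 0.05, adjusted p = 0.96) for Klf2. The Egr1 term ranked 326 from the highest of 8885 features. By limma the dye term called 0 features (0%), and 583 had an unadjusted p under 0.05. Castration and dye change places under the channel reading. There the average castration value called 0 features (0%; 418 at an unadjusted p under 0.05) and the dye term 231 (2.6%), Klf2 (0.33, SE 0.06, adjusted p = 0.016) and Ier3 (-0.39, SE 0.08, adjusted p = 0.047) among them. Which of these 2 descriptions holds was not tested. As deposited, the B lymphocyte markers Vpreb3, Pou2af1, Il7r and Blk lay above 0 on 9 of 9 arrays, swapped or not. The myeloid markers Lyz2 and Ctsg lay below 0 on 9 of 9, while Padi4 and Ccr2 were above 0 on 1 array each.

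**Figure D3:**
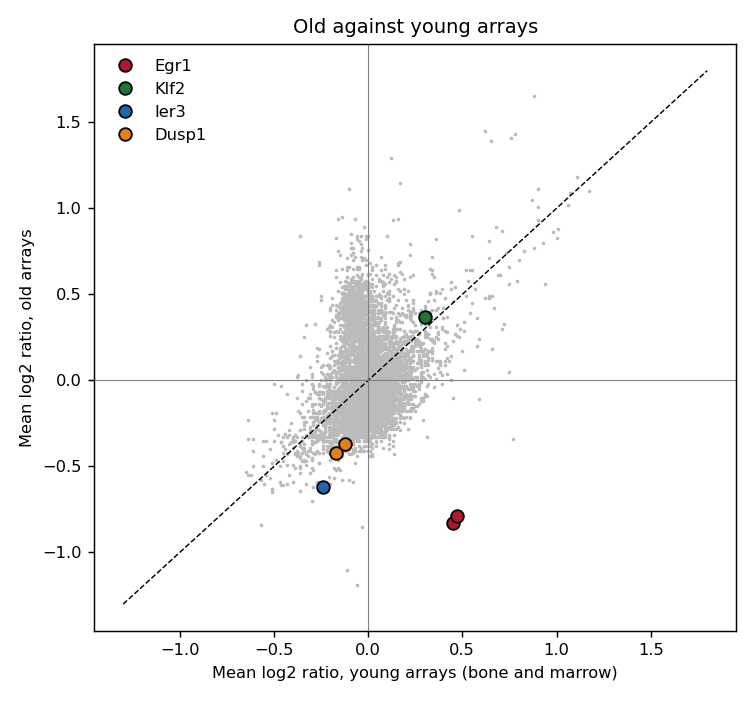
Mean log2 ratio of the 3 old arrays against that of the 6 young arrays; grey points are the 7544 features with 9 values, large points the 6 member features (Ier3 with 8 values and the second Egr1 feature with 7), and the dashed line marks equal means. Egr1 lies at 0.45 and -0.83 (second feature 0.47 and -0.79), apart from the cloud, Ier3 and Dusp1 lie below both zero lines and Klf2 lies above both, near the dashed line.

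The other immediate early genes were described from a list of 40, of which 22 were on the array and 18 were tested. In the old group 16 of the 18 genes were below 0, with a median of -0.27, against 59.1% of all features and a median of -0.04; 0 of them passed by limma, in a comparison where 1615 features had an unadjusted p under 0.05. In old minus young 17 of the 18 were below 0 (median -0.14), against 61.4% of all features (median -0.06), and again 0 passed. In young bone 9 of 18 were below 0 (median 0.00) and in young marrow 10 of 18 (median -0.02), also with 0 calls; 780 and 933 features had an unadjusted p under 0.05 there. These counts were made after the values of the members had been seen. Under the channel reading 9 of 18 were below 0 in the old group and 8 of 18 in old minus young. On the unswapped arrays alone the counts were 15 and 14 of 18, and without old replicate 2 they were 14 and 14. The size of the medians followed single arrays: the old median was -0.12 without old replicate 2, -0.17 without replicate 1 and -0.34 without replicate 3. The old minus young median was -0.10, -0.16 and -0.28 in the same order, and 0.02 and 0.01 for old and old minus young under the channel reading.

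Averaged over the groups, 1 listed gene passed in each direction. Zfp36l1, an RNA-binding protein that speeds the decay of short-lived transcripts, gave 0.40 and 0.32 in its features (SE 0.08 for the second, adjusted p = 0.044 for both) and was above 0 on 8 of 9 arrays in the second. Rhob, a small GTPase of early response, gave -0.28 in 1 feature (SE 0.07, adjusted p = 0.049) and -0.23 in the other (adjusted p = 0.20). The Rhob features disagreed in young bone, at means of 0.23 and -0.23, so its call belongs to 1 feature only. The named features gave 0.00 for Zfp36l1 and 0.10 for Rhob under the channel reading.

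The low old values were not on the same array for every listed gene. The next genes were chosen after their values were seen. Ccn2, a matricellular protein that answers the same signals, read -0.17, -1.29 and -0.27 in the old group, with replicate 2 lowest as for Egr1. Fos, the AP-1 subunit induced beside Egr1, read -0.95, 0.00 and 0.06 in 1 feature, and -1.19 and -0.16 on replicates 1 and 2 in the other. Junb, another AP-1 subunit, read -0.73, -0.28 and -0.07. For these AP-1 genes old replicate 1 was the lowest array. Ier2 read -0.31, -0.33 and -0.40, with every old array below every young one, whose values ran from -0.17 to 0.48. The old minus young differences were -0.66 for Ccn2, -0.14 and -0.62 for Fos, -0.40 for Junb and -0.33 for Ier2, none of which passed (adjusted p = 0.40 to 0.77). Over the 28 tested features of the list, old replicate 1 held the lowest value in 9, old replicate 2 in 10 and old replicate 3 in 3; over all 8885 features these arrays held the lowest value in 31.2%, 8.0% and 5.8%.

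**Figure D4:**
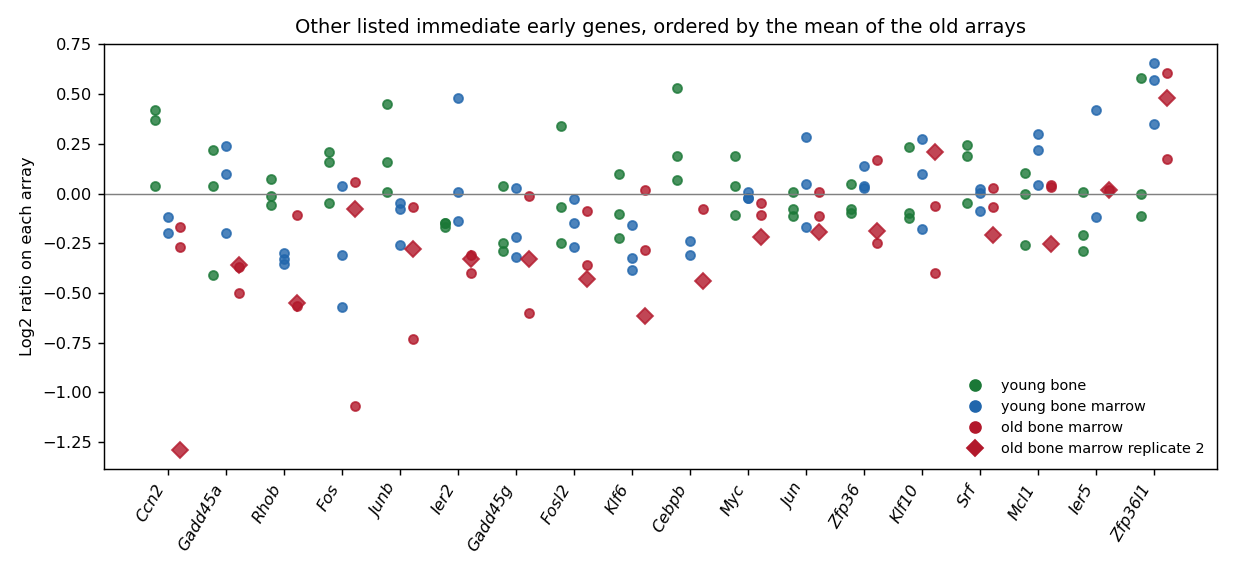
Log2 ratio of the 18 other tested immediate early genes on each array (1 point per array, features of a gene averaged), ordered by the mean of the old arrays; colours are the groups and diamonds mark old replicate 2. The low points of Ccn2 (-1.29) and Fos lie on different old arrays, replicates 2 and 1, and the values of Zfp36l1 lie above 0 on most arrays.

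Few genes of the surrounding pathways were called. Their counts stand beside 2.01% of all features passing above 0 in the average and 2.03% below 0. Of 9 tested genes of the ERK cascade and serum response factor, 1 passed in the average, in 1 of its features. This was Elk4, a partner of the serum response factor, at 0.30 (SE 0.07, adjusted p = 0.038). No gene of this list had a mean over its features above 0.19, so that call belongs to the feature and not to the gene. Of 10 tested genes of the p38 and JNK cascades, 2 passed below 0, each below 0 on 8 of 9 arrays. These were the p38 kinase Mapk13 at -0.52 (SE 0.10, adjusted p = 0.020) and the p38 substrate Mapkapk3 at -0.35 (SE 0.07, adjusted p = 0.028). The channel reading gave -0.10 for Elk4, -0.08 for Mapk13 and -0.05 for Mapkapk3, and called 0 genes of either list. None of 4 other dual-specificity phosphatases passed (Dusp11 0.10, adjusted p = 0.42; Dusp19 -0.05, adjusted p = 0.81). Of the Egr1 corepressors Nab2 gave 0.16 (adjusted p = 0.41) and Nab1 -0.03 (adjusted p = 0.91). Among 4 other Kruppel-like factors Klf6 came nearest at -0.27 (SE 0.07, adjusted p = 0.053), on the opposite side of 0 from Klf2, and Klf9 gave -0.16 (adjusted p = 0.33).

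Of 4 tested genes known to depend on Klf2, 2 lay above 0, as Klf2 did, and both passed; the other 2 lay below 0 (down to -0.24) and did not pass. Thbd, the endothelial and myeloid anticoagulant receptor thrombomodulin, gave 0.47 in 1 feature (SE 0.07, adjusted p = 0.0031, above 0 on 8 of 9 arrays). The highest gene mean over features in this list was 0.44. S1pr1, the receptor by which lymphocytes leave tissue, gave 0.44 (SE 0.08, adjusted p = 0.011, above 0 on 9 of 9). The list's median was 0.18 against 0.00 for all features, and under the channel reading the median was -0.02, with Thbd at 0.02 and S1pr1 at 0.13 and 0 called. None of the 9 tested NF-kappaB pathway genes passed; Nfkbie gave 0.32 (adjusted p = 0.062) and Nfkbia 0.20 (adjusted p = 0.15). None of 3 glucocorticoid-induced genes (Klf9, and Cdkn1a at 0.16, adjusted p = 0.53) and none of 6 heat shock genes passed (Hsp90aa1 0.17, adjusted p = 0.37; Hsph1 -0.20, adjusted p = 0.52). In this average comparison 1441 features had an unadjusted p under 0.05.

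Markers of blood and stromal cells moved beside the members. In the average, 5 of 6 tested B lymphocyte markers passed above 0 (median 0.93; Vpreb3 1.09, Pou2af1 0.96, Il7r 0.91 and Blk 0.77), as Klf2 did, with array medians of 0.61 to 1.13. Beside Ier3 and Dusp1, 4 of 4 granulocyte markers (median -0.39; Ctsg -0.55, Mmp8 -0.41, Padi4 -0.37 and Prtn3 -0.30) and 3 of 5 monocyte markers (median -0.40; Lyz2 -0.62, Ccr2 -0.42 and Mpeg1 -0.40) passed below 0. The granulocyte array medians ran from -0.68 to -0.18 and those of the monocyte markers from -0.70 to -0.07. Beside Klf2 and Thbd, 1 of 5 endothelial markers passed (Kdr 0.29). So did 3 of 3 megakaryocyte markers, each in at least 1 feature (median 0.29, with Itga2b 0.45, Selp 0.30 and Pf4 0.30 in the named features). The megakaryocyte gene means over features went down to 0.12. Among adipocyte markers 4 of 4 passed (median 0.66, with Scd1 0.95, Car3 0.85, Lpl 0.47 and Fabp4 0.45). The 1 tested osteoclast marker, Mmp9, passed at -0.43, and none of 2 T lymphocyte (Thy1 -0.30, Cd4 -0.14), 3 erythroid (Fech -0.07, Tfrc 0.05), 6 muscle (Acta1 -0.14, Myl1 -0.28) or 3 bone matrix markers (Col1a1 0.46, Col1a2 0.43) passed. These sides of 0 hold for the castrated-over-sham reading: with the channel reading 0 markers were called, and the medians were 0.01 for B lymphocyte, 0.02 for granulocyte, -0.07 for monocyte, 0.01 for endothelial, 0.01 for megakaryocyte and 0.13 for adipocyte markers, with Mmp9 at -0.09.

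Between ages, beside the gap of Egr1, the list medians of old minus young were 0.99 for muscle, -0.69 for bone matrix and 0.56 for adipocyte markers, with 0 of them called. The channel reading gave smaller medians on the same side of 0, at 0.56 for muscle, -0.50 for bone matrix and 0.20 for adipocyte markers. In old minus young marrow, castrated over sham, the medians were 0.56 for muscle, -0.61 for bone matrix and 0.65 for adipocyte markers. Of these markers 0 were called there. The muscle array medians ran from -1.36 to -0.20 in young bone, from -0.09 to 0.04 in young marrow and from 0.16 to 1.04 in the old group. Those of the bone matrix markers ran from 0.26 to 1.74, from 0.27 to 0.81 and from -0.33 to 0.38. The B lymphocyte and granulocyte medians differed by 0.04 and -0.05 between old and young. The part of cell or tissue content in the values of the members was not tested.

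The genes with the most similar profile across arrays were different ones for each member. Among 5565 singly named features with 9 values, Pearson r was computed as a description only, over 9 arrays (8 for Ier3) that share dye layout, age and tissue. Nearest to Egr1 were Ensa (r = 0.91, Spearman rho 0.90), Cables1 (0.90, rho 0.63), Ccl7 (0.87, rho 0.52), Mybph (0.86, rho 0.33) and Nr1d1 (0.86, rho 0.88). Their old values did not fall below -0.50, far from the -1.73 of Egr1. Nearest to Ier3 were Rab6a, Tbpl1 and Xist (0.92 each) and Dpysl2 and Cep41 (0.91 each). Xist, the RNA of the inactive X chromosome, read -1.19 to -0.98 on the old arrays and -0.39 to 0.26 on the young ones. The mice were male, and without intensities it is unknown if the Xist signal lay above background. What that feature measured was not tested. Nearest to Dusp1 were Hadh (0.97), Mfap2 (0.95), Fbxo44 and Tbrg1 (0.93 each) and Rnh1 (0.92). Nearest to Klf2 were Atxn3 (0.99), H2-Ob (0.95), Emb (0.94), Dstn (0.92) and Arpc2 (0.91), some of them on the other side of 0, since r follows the shape and not the level.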

How the data were processed

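RNA of castrated and sham-operated mouse pairs was measured on 9 dual-channel arrays. The authors deposited 1 log2 ratio (as read here) per feature and array; per the labels the cDNA was labelled with aminoallyl dUTP and Cy3 or Cy5. For log base, direction and normalization the entry is: not given in the sources used here. Without intensities the signal over background is unknown; precision is limited by how many arrays there are. Of 11552 features 8050 have 1 symbol, 672 several and 2830 none; 7880 symbols were matched by gene ID. No value was rescaled or imputed.

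Groups came from the labels. limma 3.58.1 (R 4.3.3; lmFit and eBayes) fitted all 9 arrays with a coefficient for each group and 1 dye term for all, each contrast as its own coefficient, with Benjamini-Hochberg adjustment over 8885 features. The fit was tested on simulated data. SE is that of the fit and SD is across arrays. Named genes are the members, in each list the genes called in any comparison (at most 4 by p in the average, else the 2 with the smallest p), and the 5 most correlated genes of each member. Unless more features are printed, a listed gene is shown by its feature with the smallest p in the average, and its other features can differ. The members and lists were chosen with earlier results of these data known. Alternatives were the channel reading, unswapped arrays only, no dye term, centring, scaling, array weights, complete features only, robust moderation, a replicate block and leaving out each array. Promoter letters were searched in RefSeq sequence. Same-numbered old and young marrow arrays deviated together (r = 0.60, 0.27 and 0.30 across features; different numbers -0.52 to 0.13), so the numbers pair the marrow groups by the rule used (every r over 0.1), as a hint from the data and not from the labels; pairs with young bone did not (r from -0.37 to 0.38).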

Additional observations from a re-analysis of the deposited data

Results flagged for a closer look

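In the values as deposited, Egr1 had opposite signs at the 2 ages on every array with a value. Its first feature averaged -0.83 on the 3 old arrays and 0.45 on the 6 young arrays, and the difference was tested with limma (-1.28, SE 0.25, adjusted p = 0.35). Its second feature averaged -0.79 on the 3 old arrays and 0.47 on the 4 young arrays with a value, and that difference was not tested. The old value comes largely from replicate 2, at -1.73 and -1.74, where the castrated mouse was in Cy3, and whether dye, that mouse pair or the specimen bears on it was not tested. Under the channel reading the swapped arrays change sign, and the fitted old minus young difference of the first feature was 0.25 (SE 0.47).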

How the results depend on the processing

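Under the channel reading the counts of called features were 0 for the average (359 as reported), young bone (23), young marrow (75), old (65) and old minus young (4), and 231 for dye (0), and the reversed member values were -0.01 (Klf2) and 0.01 (Ier3) for the average and 0.33 (Klf2) and -0.39 (Ier3) for dye. With unswapped arrays only, the average called 86, young bone 1, young marrow 3, old 13 and old minus young 0. Without the dye term young bone called 50 and old minus young 2. Scaling gave 1 in young bone, 174 in young marrow, 13 in old and 2 in old minus young marrow (0 as reported). Array weights gave 1093, 76, 1617 and 394 for the average and the groups, 583 for old minus young marrow and 5 for young bone minus young marrow (0 as reported). Complete features gave 2 for old minus young marrow. With the replicate block, young bone called 52, young marrow 119 and old minus young 2, and the first Dusp1 feature passed in the average (-0.26, adjusted p = 0.029). In old minus young marrow, whose numbers met the pairing rule, the block called 0 features, as without it, with Egr1 at -1.34 (adjusted p = 0.17). The block changed no other member call. Leaving out 1 array (leave-one-out) gave 96 to 574 calls for the average, 1 to 80 for young bone, 0 to 138 for young marrow, 10 to 1332 for old, 0 to 884 for old minus young and 0 to 885 for old minus young marrow. Of 702 member values under alternatives, 613 kept direction and side of the threshold, 17 lost the call, 22 gained one, 4 reversed and 46 turned sign with neither value called. Causes were not tested beyond the construction of each alternative (fewer arrays or features). Limits are 3 arrays a group, 1 swapped array a group and no intensities.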
